A study of Mus musculus with 6 samples.

Results

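Mouse miRNAs numbered 1000 and above were examined in serum exosomes. A row of the deposited count table was taken when its name was mmu-miR- followed by a number of at least 1000 and when its counts summed to at least 10 over the 6 mice. This rule found 142 miRNAs among 1982 rows, of which 954 held at least 1 count. The table held 1066 rows numbered 1000 and above. Of these, 666 were at 0 in every mouse and 258 had a sum of 1 to 9. The 142 miRNAs were thus chosen by the sum of their counts over all mice, and the difference between the groups was not used. It did require counts somewhere, and it favoured the deeper libraries. At the threshold, 10 miRNAs stood at a sum of exactly 10, such as miR-6958-3p and miR-7044-5p, and 9 were left out at a sum of 9, such as miR-1191a and miR-5104.

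The mice were male C57BL/6 mice aged 3 months. Exosomes were pelleted from the serum of each mouse and gave 1 small RNA library per mouse. The sham group was 3 mice with needles and connected leads but no current, numbered 1, 2 and 3. The Acu/LFES group was 3 mice given acupuncture with low frequency electrical stimulation through needles on the hindlimb, numbered 4, 5 and 6. Values under sham and under Acu/LFES are given below in this order of the mice. The labels give no transgene or disease model, and exosomes in serum come from many tissues. Fewer exosomes from a tissue and less of a miRNA per exosome cannot be told apart in such libraries.

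A microRNA is cut from a hairpin in a longer transcript, usually by Drosha in the nucleus and then by Dicer in the cytoplasm. The mature strand, named 5p or 3p for the arm it comes from, is loaded on an Argonaute protein. Its seed, bases 2 to 8, pairs with target messages. miRNAs were numbered in the order in which they were registered, so high numbers mostly mark hairpins found late, by deep sequencing. Many are weakly conserved. Some lie in small nucleolar RNAs (snoRNAs) or small Cajal body RNAs (scaRNAs), which guide the modification of other RNAs. Others are mirtrons, short introns whose spliced and debranched ends form the hairpin without Drosha.

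RefSeq mature sequences on GRCm38.p6 were matched for 117 of the 142 miRNAs by name. The sequences below are those with the highest counts among the miRNAs that matched, with the seed in capitals.
miR-1198-5p: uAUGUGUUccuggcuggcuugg
miR-1839-5p: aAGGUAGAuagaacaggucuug
miR-5126: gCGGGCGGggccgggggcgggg
miR-1843b-5p: aUGGAGGUcucugucugacuu
miR-5106: aGGUCUGUagcucaguuggcaga
miR-1843a-5p: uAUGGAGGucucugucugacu
miR-6240: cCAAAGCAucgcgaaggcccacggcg
miR-1249-3p: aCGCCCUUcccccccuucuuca

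miR-1198-5p lies at chrX:7807142-7807163 on the plus strand, in an intron of Gripap1. miR-1839-5p lies at chr7:81529919-81529940 on the plus strand, in a scaRNA inside the long noncoding gene 2900076A07Rik. miR-5126 lies at chr1:84695890-84695911 on the plus strand, with no host gene on its strand in GENCODE M21, and all 22 of its bases are G or C. miR-1843b-5p, at chr1:159340362-159340382 on the plus strand, is inside Scarna3a in an intron of Cop1. miR-1843a-5p, at chr12:80391654-80391674 on the minus strand, is inside Scarna3b in an intron of Dcaf5. The last 2 share 20 bases without a mismatch, shifted by 1 base, so reads could have been split between them and each count is uncertain. miR-1249-3p, at chr15:84951545-84951566 on the minus strand, is inside 5031439G07Rik.

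The 117 sequences held 115 different seeds, so they form almost no seed families. The pair miR-1943-5p and miR-6967-5p shared a seed, which miR-149-3p also has, and the pair miR-5110 and miR-7081-5p shared another. In all, 8 of the 117 had the seed of a mouse miRNA numbered under 1000. The clearest case is miR-6353, shown with 2 members of the miR-15/16 family, which limits the cell cycle. The seed is again in capitals.
miR-6353: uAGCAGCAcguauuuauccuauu
miR-16-5p: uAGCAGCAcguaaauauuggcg
miR-15a-5p: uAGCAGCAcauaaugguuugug

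miR-6353 had 4, 1 and 0 counts in sham mice 1 to 3 and 4, 0 and 3 counts in Acu/LFES mice 4 to 6. Its sum of 12 stood beside 40854 counts of miR-16-5p.

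The sequences were rich in G and C. Their median GC content was 55.0%, against 47.8% for 307 miRNAs numbered under 1000 with a sum of at least 10. It was a similar 55.3% for 812 miRNAs numbered 1000 and above that fell below the sum of 10. A GC content of at least 70% was found in 14 of 117 (12%), against 4 of 307 (1.30%). The same share was 6.28% among those 812. Lengths outside 21 to 24 bases were found in 22.2% of the 117, against 5.21% of the 307 and 12.7% of the 812. These are descriptions of the annotation and carry no test.

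The libraries differed in depth and in composition. Total counts were 624982, 658833 and 391708 in sham mice 1, 2 and 3 and 1504137, 631279 and 517421 in Acu/LFES mice 4, 5 and 6. The red cell miRNAs miR-486a-5p and miR-486b-5p, called the miR-486 pair below, took 61.7% to 74.0% of the counts in 5 mice and 29.2% in Acu/LFES mouse 6. The rows of the pair held the same count in all 6 mice, so these shares and the totals may count the same reads in both. With the pair counted once, totals were 252344 to 1038878, and the share was 44.6% to 58.7% in those 5 mice and 17.1% in mouse 6. Trimmed mean (TMM) factors, used to bring the bulk of the miRNAs to a common level, ran from 0.651 to 1.11 in those 5 mice and reached 2.12 in mouse 6. The log2 ratio of miR-451a to miR-23a-3p, a sign of haemolysis, lay between -0.17 and 1.51 under sham and between -0.08 and 1.09 under Acu/LFES. Summed red cell markers, all 5 detected, reached 564000 to 1146000 normalized counts per 1000000 (CPM) under sham and 146800 to 972100 under Acu/LFES. These sums can pass 1000000 because the TMM factors rescale the totals. They were mostly the miR-486 pair, each row of which averaged 435650 CPM under sham and 276537 under Acu/LFES. Each row of the pair had a log2 fold change of -0.66 ± 0.64 (SE, edgeR). miR-451a, at 0.34 ± 0.34 (SE), and miR-16-5p, at 0.15 ± 0.25 (SE), went the other way, so the sums do not describe the whole red cell list. The liver list (both detected) lay at 10260 to 23620 and 4024 to 17870 CPM. The striated muscle list (4 of 5 detected, miR-208a-3p at 0) lay at 10090 to 11260 and 7475 to 12450 CPM. The platelet and myeloid list (3 of 3) lay at 5641 to 6914 and 4419 to 6497 CPM, the lymphoid list (2 of 2) at 423 to 1250 and 556 to 643 CPM, and the endothelial list (2 of 2) at 2151 to 2589 and 1487 to 2171 CPM. In each pair the sham range comes first, and the ranges overlapped in every list, though only from 2151 to 2171 CPM in the endothelial list. In that list miR-126a-5p was lower in all Acu/LFES mice than in all sham mice. Its log2 fold change was -0.41 ± 0.22 (SE, edgeR adjusted p = 0.568). The groups overlapped in miR-126a-3p, at -0.12 ± 0.42 (SE). The part of these differences in the results below was not tested. A count of 3, used as the floor, equalled 4.32, 7.0 and 9.91 normalized CPM under sham and 1.80, 6.24 and 2.74 under Acu/LFES.

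The 142 miRNAs were a small and uneven share of the libraries. They held 21114 counts in all. miR-1957a alone held 36.1% of these, with 7620 counts, and with miR-1198-5p it held 52.5%. By its sum miR-1957a ranked 45 among all rows. The median sum was 23.0 counts per miRNA, against 148.0 for 369 miRNAs numbered under 1000 that passed the same sum of 10. A sum under 50 was found for 99 of the 142, and a sum of at least 100 for 23. Only 13 had at least 10 counts in every mouse.

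Detection was patchy. Of the 852 combinations of a miRNA and a mouse, 351 (41.2%) were at 0 counts. A count was found in all 6 mice for 32 of the 142 miRNAs (22.5%) and in 1 mouse for 17 (12%). For the 369 lower-numbered miRNAs, these shares were 53.9% and 4.34%. By sum the gap was not in one direction. At a sum of 10 to 19, the 60 high-numbered miRNAs were found in 2.23 mice on average and the 45 lower-numbered ones in 2.24 mice. At a sum of 20 to 49 these means were 3.39 and 3.56 mice, at 50 to 99 they were 4.95 and 4.56 mice, and at 100 or more they were 5.91 and 5.81 mice.

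**Figure D1:**
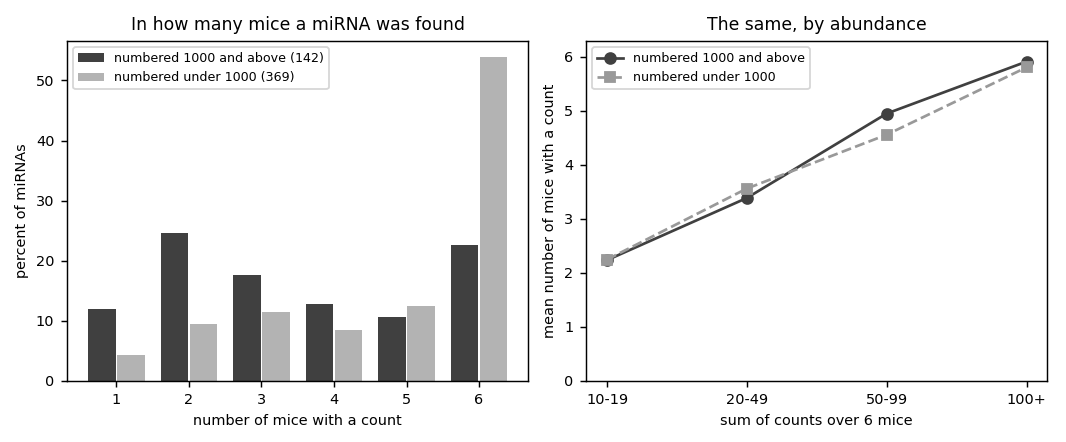
Left, percent of miRNAs (y axis) with a count in 1 to 6 mice (x axis), for 142 miRNAs numbered 1000 and above (dark) and 369 numbered under 1000 (grey), all with a sum of at least 10. Right, mean number of mice with a count (y axis) by sum of counts over 6 mice (x axis). The dark bars lean to few mice, at 22.5% in all 6 mice against 53.9%, while the lines on the right stand at 2.23 and 2.24 mice in the lowest class and at 4.95 and 4.56 mice for sums of 50 to 99.

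Many low miRNAs came from a single library. Sham mouse 1 alone held miR-3065-3p, miR-6541, miR-6901-5p, miR-6915-5p, miR-6945-3p and miR-6967-5p. Sham mouse 2 alone held miR-6952-3p, with 19 counts, and miR-7030-3p, with 16 counts. Sham mouse 3 alone held miR-6947-5p and miR-6956-3p. Acu/LFES mouse 4 alone held miR-3061-3p, miR-6960-5p and miR-7658-3p, mouse 5 alone held miR-1934-5p and miR-6911-3p, and mouse 6 alone held miR-3066-5p and miR-5116. All 6 mice therefore had miRNAs of their own, with 2 to 6 each. Among miRNAs with a sum of at least 20, 1 mouse held at least 80% of the counts for a pair. miR-6516-5p, which lies in a scaRNA of the host gene Snhg20, had 0, 0 and 1 counts under sham and 19, 3 and 0 counts under Acu/LFES. miR-7687-5p had 0, 18 and 0 counts under sham and 0, 4 and 0 counts under Acu/LFES.

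Some rows carried the same 6 counts as another row. miR-3066-5p and miR-5116 each had 10 counts in Acu/LFES mouse 6 and 0 elsewhere. miR-6541 and miR-6901-5p each had 13 counts in sham mouse 1 and 0 elsewhere. miR-6960-5p matched miR-700-3p at 11 counts in Acu/LFES mouse 4, and miR-3058-3p matched miR-149-3p at 10 counts in mouse 4 and 1 count in mouse 5. At 1 or 2 filled mice such matches do not show that the same reads were counted in both rows.

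The number detected per mouse was higher on average in the Acu/LFES group, but the groups overlapped. At least 1 count was found for 88, 68 and 58 of the 142 miRNAs in sham mice 1, 2 and 3 and for 111, 85 and 91 in Acu/LFES mice 4, 5 and 6. The means were 71.3 ± 15.3 (SD, n = 3) and 95.7 ± 13.6 (SD, n = 3). Sham mouse 1 lay above Acu/LFES mouse 5. When each library was reduced to 112980 counts outside the miR-486 pair, the smallest such total, the expected numbers were 81.7, 64.5 and 58.0 under sham and 94.8, 80.9 and 79.3 under Acu/LFES. The difference of means then was 16.9 in place of 24.3. Without this reduction, it was 3.0 for miRNAs with a sum of at least 50, which leaves out 99 of the 142. No test was made over the members. They were chosen by sums at full depth, in which the Acu/LFES libraries held 14533 of the 21114 counts. Reducing the libraries afterwards does not undo that choice, so the difference left at equal depth is not free of it. The 369 lower-numbered miRNAs, reduced in the same way, gave 276.1, 242.0 and 240.0 under sham and 329.4, 290.7 and 316.2 under Acu/LFES.

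The 142 miRNAs took 0.478%, 0.312% and 0.394% of all counts under sham and 0.455%, 0.573% and 0.788% under Acu/LFES. The means were 0.394% ± 0.083 (SD, n = 3) and 0.605% ± 0.169 (SD, n = 3), and the groups overlapped. The difference of means was 0.211 percentage points, and it was 0.120 without Acu/LFES mouse 6, in which the miR-486 share was lowest. With the pair counted once, added after seeing the data, the shares were 0.495% to 0.691% under sham and 0.658% to 0.922% under Acu/LFES, and the difference of means was 0.230 percentage points. Outside the miR-486 pair the shares were 1.25%, 1.20% and 1.37% under sham and 1.19%, 2.16% and 1.11% under Acu/LFES. Mouse 5 then stood highest, and miR-1957a held 47.7% of the counts of the 142 miRNAs there.

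**Figure D2:**
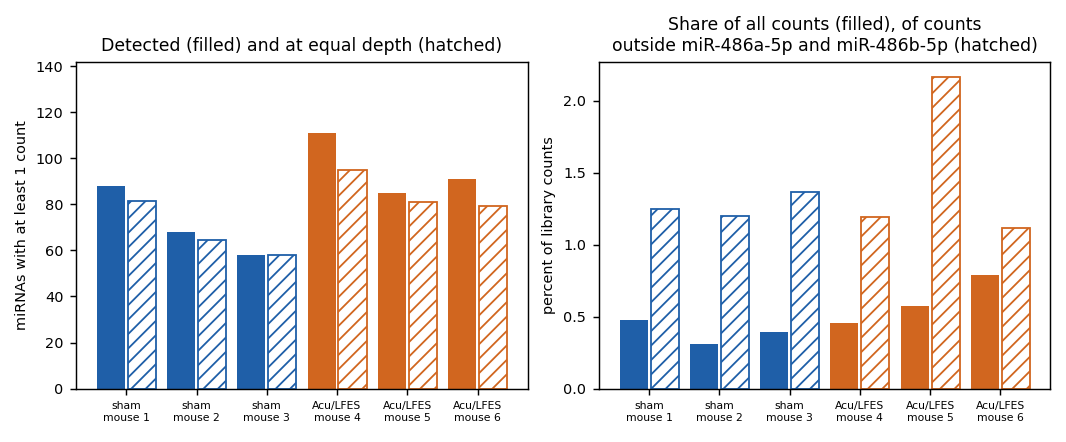
Left, number of the 142 miRNAs with at least 1 count in each mouse (filled bars) and the expected number at equal depth outside the miR-486 pair (hatched bars). Right, percent of the library's counts on the 142 miRNAs, over all counts (filled) and outside the miR-486 pair (hatched), with sham mice in blue and Acu/LFES mice in orange. The deepest library, mouse 4, falls from 111 to 94.8 at equal depth, and mouse 5 rises to 2.16% in the right panel.

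More of the miRNAs had counts in the Acu/LFES mice only than in the sham mice only. Of the 142 miRNAs, 31 (21.8%) had counts in Acu/LFES mice only and 10 (7.04%) in sham mice only. A miRNA with counts in 1 group only entered the 142 if that group alone held at least 10 counts. The rule thus favoured the group with more counts in all. The Acu/LFES libraries held 2652837 counts in all and the sham libraries 1675523. With the deepest library, mouse 4, left out, a choice made after seeing the data, these numbers were 28 and 21. The 142 were still those chosen with mouse 4, and fewer Acu/LFES than sham mice were left. A miRNA with sham counts whose Acu/LFES counts were all in mouse 4 then passed to the sham side. The 2 numbers therefore cannot show a balance between the groups. With mouse 4 kept, the numbers in the lower-numbered miRNAs were 50 of 369 (13.6%) and 3 of 369 (0.813%). At least 3 counts in every mouse of the Acu/LFES group and at most 1 count in every sham mouse were found for 2 of the 142 (1.41%), miR-3473g and miR-3113-3p, against 3.5% of all 514 rows with a sum of at least 10. No row showed the opposite. miR-3473g, in an intron of Sppl2a, had 0, 0 and 0 counts under sham and 7, 3 and 3 counts under Acu/LFES. miR-3113-3p, inside Huwe1, had 1, 1 and 0 counts under sham and 8, 3 and 3 counts under Acu/LFES. Both were too low to enter the test. At 3 counts they stood at the floor, so no fold is given. A count in every Acu/LFES mouse and 0 in every sham mouse was found for 6 of the 142 (4.23%), against 4.28% of the 514 rows. Beside miR-3473g these were miR-3060-3p, miR-1247-5p, miR-5108, miR-5622-3p and miR-8116, with 1 to 18 counts per Acu/LFES mouse. The opposite was found for no row.

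The comparison of Acu/LFES with sham asked whether stimulation changed the miRNA content of serum exosomes. The edgeR quasi-likelihood test was fitted on all 259 miRNAs that passed a filter on low counts, and 35 of the 142 were among them. None of the 35 passed at a Benjamini-Hochberg adjusted p under 0.05, where the share over all tested miRNAs was also 0.0%. None had an unadjusted p under 0.05 in edgeR, where 15 of 259 (5.79%) were higher and 8 of 259 (3.09%) lower with Acu/LFES. DESeq2 gave 0 of the 35 at an adjusted p under 0.05, leaving the adjusted p of 23 undefined, and 1 at an unadjusted p under 0.05, miR-5107-5p, where it gave 29 of 259 (11.2%) over all miRNAs. It called 8 of 148 (5.41%) over all miRNAs to which it gave an adjusted p. The smallest adjusted p among the 35 was 0.562 in edgeR.

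The log2 fold changes of the 35, Acu/LFES over sham, ran from -2.33 to 2.47, with 12 above 0 and 23 below 0. Their median was -0.21, against 0.05 over all 259. The median standard error was 0.86, against 0.67 over all 259, and 2 of the 35 lay more than 2 standard errors from 0. Scaling by total counts in place of TMM moved the median over all 259 to 0.71 and that of the 35 to 0.16, with 23 above 0 and 12 below 0, so the side on which most of them fell depended on the scaling. The median was -0.72 without Acu/LFES mouse 5, -0.48 without sham mouse 1 and -0.02 without Acu/LFES mouse 6.

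**Figure D3:**
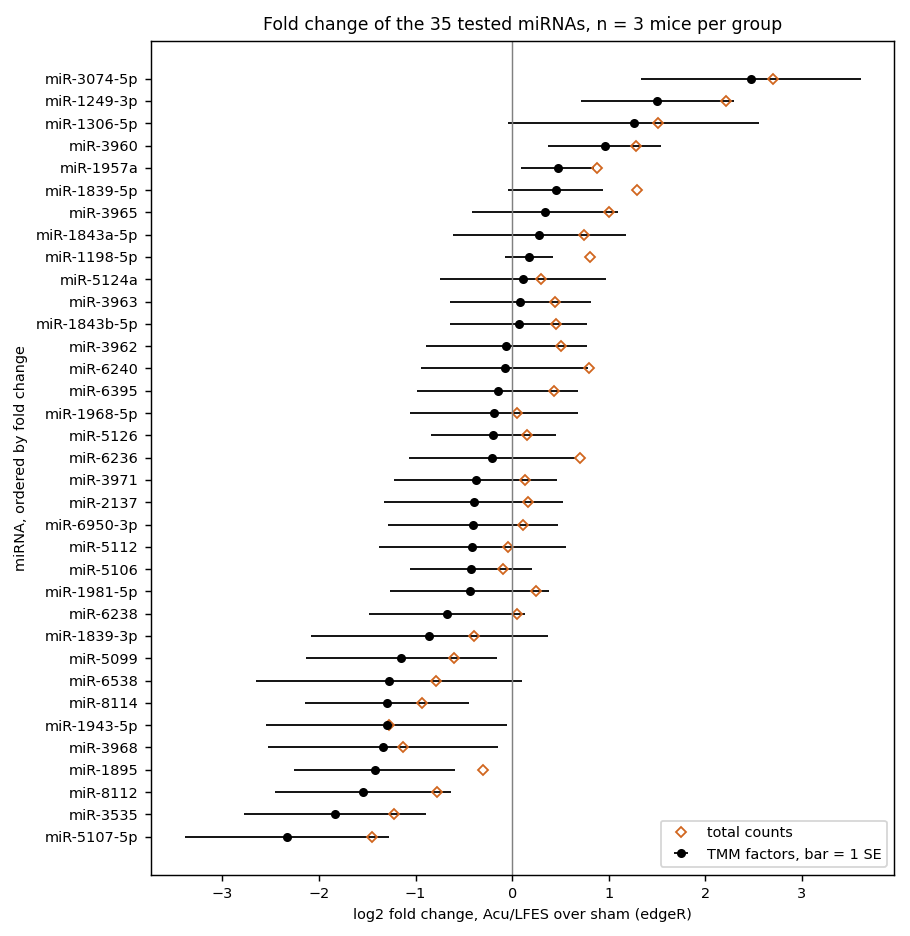
log2 fold change of Acu/LFES over sham (x axis) for the 35 tested miRNAs (y axis), from edgeR with 3 mice per group. Black points with bars of 1 standard error use TMM factors and open diamonds use total counts. The points run from -2.33 for miR-5107-5p to 2.47 for miR-3074-5p, and most diamonds lie to the right of their points.

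The 2 most abundant miRNAs had the smallest standard errors. miR-1198-5p had 445, 353 and 200 counts under sham and 1231, 450 and 795 counts under Acu/LFES, or 642, 823 and 661 normalized CPM against 737, 936 and 725. The groups overlapped, at a log2 fold change of 0.17 ± 0.25 (SE, edgeR adjusted p = 0.877). miR-1957a had 1377, 1442 and 1708 normalized CPM under sham and 1473, 3587 and 1226 under Acu/LFES. Mouse 5 stood far above the rest, and the log2 fold change of 0.47 ± 0.38 (SE) became -0.16 without it (edgeR adjusted p = 0.786 with all mice). By total counts alone both miRNAs were higher in all 3 Acu/LFES mice than in all sham mice, as were miR-3960 and miR-3074-5p, 4 of the 35 (11.4%) against 15.8% of all 259.

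**Figure D4:**
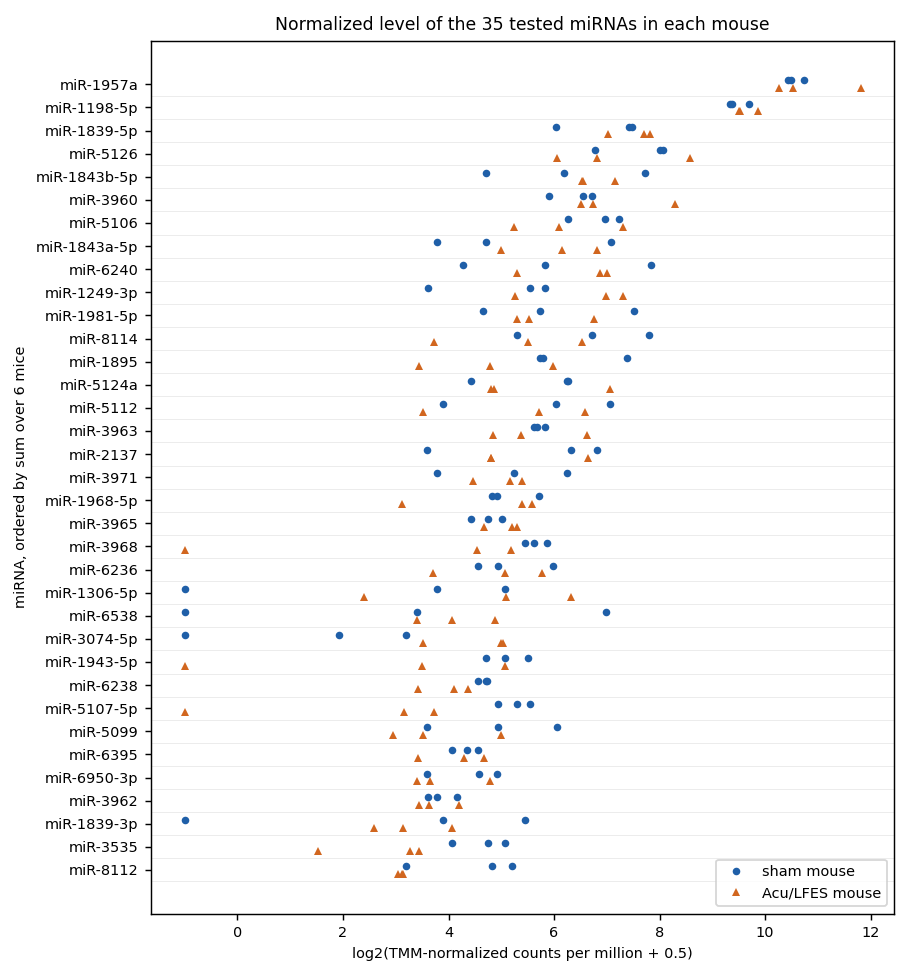
log2 of TMM-normalized CPM plus 0.5 (x axis) for the 35 tested miRNAs (y axis, by sum over 6 mice), 1 point per mouse, sham mice as blue circles and Acu/LFES mice as orange triangles. Points at -1 are mice with 0 counts. Blue and orange points overlap in 29 of the 35 rows.

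On the normalized CPM scale, 1 of the 35 (2.86%) had all Acu/LFES mice above all sham mice, where the share over all 259 was 8.88%. All Acu/LFES mice were below all sham mice for 5 of the 35 (14.3%), against 8.11% of all 259. For each of these 6, the two-sided exact permutation test over the 6 mice gave p = 0.1, the smallest it can give with 3 mice per group. By total counts, none of the 259 had all Acu/LFES mice below all sham mice.

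miR-3074-5p was the one with all Acu/LFES mice above. Its counts were 6, 0 and 1 under sham and 54, 15 and 12 under Acu/LFES, or 8.65, 0 and 3.30 normalized CPM against 32.3, 31.2 and 11. The gap between sham mouse 1 and Acu/LFES mouse 6 was small. The log2 fold change was 2.47 ± 1.14 (SE), with an edgeR p of 0.0556 and an adjusted p of 0.565, and it ran from 1.92 to 3.97 when each mouse was left out. It is encoded on the strand opposite miR-24, a broadly expressed miRNA. The Mir3074-1 hairpin, chr13:63301199-63301283 on the minus strand, overlaps Mir24-1 by 68 bases, and the Mir3074-2 hairpin, chr8:84208825-84208907 on the minus strand, overlaps Mir24-2 by 83 bases. The mature strand is complementary to miR-24-3p over 20 bases, which are in capitals.
miR-3074-5p: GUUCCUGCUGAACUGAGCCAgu
miR-24-3p: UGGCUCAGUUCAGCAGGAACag

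miR-24-3p had 3297, 1626 and 1054 counts under sham and 8141, 1586 and 8236 under Acu/LFES. Per 10000 of these, miR-3074-5p had 18.2, 0 and 9.49 counts under sham and 66.3, 94.6 and 14.6 under Acu/LFES, so on this scale Acu/LFES mouse 6 lay below sham mouse 1. miR-24-3p itself had a log2 fold change of 0.38 ± 0.31 (SE, edgeR adjusted p = 0.786). Of the other hairpins listed as antisense to an older miRNA, miR-3065-3p had 11 counts in sham mouse 1 and 0 in every other mouse, and its hairpin overlaps Mir338 by 87 bases on chromosome 11.

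The 5 miRNAs with all Acu/LFES mice below were low. The sequences of the 4 that matched follow, with the seed in capitals.
miR-3535: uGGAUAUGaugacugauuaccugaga
miR-8112: uCUCCGCCaccuccaccgca
miR-3968: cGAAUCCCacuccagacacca
miR-6238: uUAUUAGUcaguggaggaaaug

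miR-5107-5p had 27, 13 and 14 counts under sham and 14, 0 and 14 under Acu/LFES, or 38.9, 30.3 and 46.3 normalized CPM against 8.38, 0 and 12.8. The groups were apart only after normalization, since the counts themselves overlapped at 13 and 14. Its log2 fold change was -2.33 ± 1.06 (SE), with an edgeR p of 0.0521 and an adjusted p of 0.562, and it was -1.45 by total counts. The other arm, miR-5107-3p, had 8, 23 and 0 counts under sham and 4, 0 and 14 under Acu/LFES. This arm was the higher of the pair in sham mouse 2 and at 0 in sham mouse 3.

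miR-3535 lies at chr1:86352062-86352087 on the minus strand, in a snoRNA (Gm24148) within an intron of Ncl, the gene of nucleolin. It had 23, 7 and 8 counts under sham and 4, 5 and 10 under Acu/LFES, or 33.2, 16.3 and 26.4 normalized CPM against 2.39, 10.4 and 9.13. Acu/LFES mouse 4, the deepest library, was lowest. The log2 fold change was -1.83 ± 0.94 (SE, edgeR adjusted p = 0.568).

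miR-8112 lies at chr6:71271745-71271764 on the plus strand, and no host gene on that strand spans its whole hairpin. Its sequence is found in the transcripts of 2 GENCODE genes. It had 6, 12 and 11 counts under sham and 13, 4 and 9 under Acu/LFES. Its normalized CPM were 8.65, 28.0 and 36.3 against 7.78, 8.32 and 8.21. The Acu/LFES mice were close together, and sham mouse 1 stood just above them. The log2 fold change was -1.54 ± 0.91 (SE, edgeR adjusted p = 0.681).

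miR-3968, at chr11:115447969-115447989 on the minus strand, had 57.7, 49 and 43 normalized CPM under sham and 35.9, 22.9 and 0 under Acu/LFES. The sham mice were close together and the Acu/LFES mice spread down to 0. miR-6238, at chr7:53891796-53891817 on the minus strand, had 25.9, 25.7 and 23.1 normalized CPM under sham and 10.2, 16.6 and 20.1 under Acu/LFES. Its log2 fold change was -0.68 by TMM and 0.05 by total counts, so its direction depended on the scaling.

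Other tested miRNAs had large but loose differences. miR-1249-3p had 32, 5 and 17 counts under sham and 63, 61 and 174 under Acu/LFES, or 46.1, 11.7 and 56.2 normalized CPM against 37.7, 127 and 159. Acu/LFES mouse 4 lay among the sham mice and the other 2 above them, and the log2 fold change was 1.50 ± 0.79 (SE, edgeR adjusted p = 0.568). miR-3960 had 105, 93.3 and 59.5 normalized CPM against 107, 312 and 90.3, again with mouse 5 highest. miR-1895 had 54.8, 166 and 52.9 normalized CPM under sham and 26.9, 10.4 and 63.0 under Acu/LFES. miR-8114 had 38.9, 105 and 221 against 44.9, 91.5 and 12.8. In miR-1895 and miR-8114 the lowest mouse was an Acu/LFES mouse and the highest a sham mouse, with overlap between.

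The remaining tested miRNAs overlapped between the groups, and their unadjusted edgeR p ran upward from 0.274. miR-5126 and miR-5106, each with 403 to 708 counts, had log2 fold changes of -0.19 ± 0.65 (SE) and -0.43 ± 0.63 (SE). miR-1981-5p, miR-5124a, miR-5112, miR-3963, miR-2137, miR-3971 and miR-1968-5p, with sums of 165 to 278, lay between -0.44 and 0.11. miR-6395, miR-6950-3p and miR-3962, with sums of 69 to 79, lay between -0.40 and -0.06. miR-1943-5p, miR-6538 and miR-5099 stood at -1.30, -1.27 and -1.15, each with a standard error of at least 0.99. miR-1839-3p, with 10, 0 and 13 counts under sham and 27, 4 and 6 under Acu/LFES, stood at -0.86 ± 1.22 (SE). In miR-6538, sham mouse 3 alone held 126 normalized CPM, and the log2 fold change was 1.69 without it.

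The sequences in snoRNAs or scaRNAs formed a group of 9. These were both arms of miR-1843a and miR-1843b, and miR-1839-5p, miR-3535, miR-3068-5p, miR-6516-5p and miR-5121, which lies in Snord33 within Rpl13a. These miRNAs, counted by arm, were 8.49% of the 106 with a RefSeq hairpin, against 0.694% of 288 lower-numbered ones. The share was 1.17% among 767 miRNAs numbered 1000 and above that fell below the sum of 10. Of the 9, 4 were tested, with 3 log2 fold changes above 0 and 1 below 0 and a median of 0.18. miR-1839-5p had 64.9, 170 and 178 normalized CPM under sham and 224, 129 and 207 under Acu/LFES, at a log2 fold change of 0.45 ± 0.49 (SE, edgeR adjusted p = 0.799). miR-1843b-5p had 212, 25.7 and 72.7 against 142, 93.6 and 92.2, and miR-1843a-5p had 134, 25.7 and 13.2 against 112, 31.2 and 70.3. In both, sham mouse 1 was highest and the lowest mouse was also a sham mouse.

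Both arms passed the sum of 10 for 11 hairpins. The 5p arm held 93.3%, 93.7% and 94.0% of the counts of miR-1839, miR-1843a and miR-1843b, the 3 scaRNA hairpins among them. By mouse, the 5p share of miR-1839 ran from 80.6% to 100%. miR-1843b was the exception in sham mouse 2, where 11 of 25 counts (44.0%) were on the 5p arm. In the other 8 hairpins the 5p share was 44.1% to 69.9% of the sum of both arms, and it swung between mice. miR-1306, whose hairpin lies in an exon of Dgcr8, the partner of Drosha, had 23, 0 and 4 counts of its 5p arm under sham and 8, 38 and 37 under Acu/LFES. Its 3p arm had 11, 0 and 11 counts against 22, 10 and 0. The 5p share was 26.7% in Acu/LFES mouse 4 and 100% in mouse 6. The 5p arm was tested, at a log2 fold change of 1.26 ± 1.30 (SE, edgeR adjusted p = 0.799).

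Some hairpins lay at intron ends. A hairpin end lay within 10 bases of an intron end for 32 of the 106 (30.2%), against 5 of 288 (1.74%) for the lower-numbered miRNAs. Among miRNAs numbered 1000 and above that fell below the sum of 10, it was 375 of 767 (48.9%). Both ends met intron ends, as in a mirtron, for 6 of the 106 (5.66%), against 0.694% of the 288 and a similar 4.43% of the 767. The 6 were miR-1981-5p, miR-1224-3p, miR-6944-3p, miR-1231-3p, miR-7068-3p and miR-6958-3p. The 3p sequences of this kind show the intron's end in their own letters. Of 16 3p miRNAs whose hairpin ended at the 3′ end of an intron, 15 (93.8%) ended in AG, the last bases of most introns, against 6 of 151 (3.97%) lower-numbered 3p miRNAs. A selection follows, with the seed in capitals and the AG as the last letters.
miR-1224-3p: cCCCACCUcuucucuccucag
miR-6944-3p: uAACUCUUcccuugugcccucag
miR-1231-3p: uGCCCUGUcuguucugcccacag
miR-7068-3p: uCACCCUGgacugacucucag
miR-6988-3p: uGACCUCUguaucuccugccag

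miR-1224-3p lies at chr16:20604516-20604536 on the plus strand, in Vwa5b2. The 32 miRNAs were low, with a median sum of 14.0 and a median of 2.0 mice with a count. The 85 matched miRNAs outside the group, 11 of them without a RefSeq hairpin to place, had a median sum of 28.0 and a median of 4.0 mice. Only miR-1981-5p of the 32 was tested. It had 17, 78 and 16 counts under sham and 65, 52 and 50 under Acu/LFES, or 24.5, 182 and 52.9 normalized CPM against 38.9, 108 and 45.6. Sham mouse 2 was highest, and the log2 fold change of -0.44 ± 0.82 (SE) became 0.74 without it. miR-1224-3p had 8, 12 and 2 counts under sham and 5, 0 and 13 under Acu/LFES. miR-6944-3p had 20, 0 and 0 counts against 9, 0 and 0.

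The sequences of 3 miRNAs nearly matched far more abundant older ones. miR-3965 and miR-3967 resemble miR-21a-5p, one of the most studied miRNAs in growth and injury, and miR-3962 resembles let-7g-5p of the let-7 family. In the sequences below, capitals mark the bases that differ from the older miRNA.
miR-21a-5p: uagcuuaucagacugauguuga
miR-3965: UgcuuaucagCcugauguu
miR-3967: agcuuGucUgacugauguug
let-7g-5p: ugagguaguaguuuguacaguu
miR-3962: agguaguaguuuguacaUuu

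Counting positions from 1 at the 5′ end of the older miRNA, with its base first, miR-3965 differs from miR-21a-5p by A2U and A12C over 19 bases and miR-3967 by A7G and A10U over 20 bases. miR-3962 differs from let-7g-5p by G20U over 20 bases. RefSeq places miR-3965 at chr5:134326494-134326512 on the plus strand and miR-3962 at chr1:194822035-194822054 on the plus strand, both with no host gene. miR-3967 is placed at chr2:22654321-22654340 on the plus strand, in an intron of Gad2.

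The counts of these miRNAs are given beside those of the older ones. miR-3965 had 22, 9 and 8 counts under sham and 65, 12 and 40 under Acu/LFES. Per 10000 counts of miR-21a-5p these were 41.5, 20.1 and 30.4 under sham and 22.4, 32.8 and 34.0 under Acu/LFES. Over the same mice miR-21a-5p itself ran from 2632 to 29061 counts. The normalized CPM of miR-3965 ran from 21 to 38.9, so its spread was not smaller relative to miR-21a-5p. The log2 fold changes of the pair were 0.34 ± 0.75 (SE) for miR-3965 and 0.42 ± 0.32 (SE) for miR-21a-5p.

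miR-3962 had 12, 5 and 4 counts under sham and 30, 5 and 13 under Acu/LFES. Per 10000 counts of let-7g-5p these were 12.8, 7.99 and 9.55 under sham and 10.8, 12.2 and 9.08 under Acu/LFES. The groups overlapped, and the log2 fold changes were -0.06 ± 0.83 (SE) for miR-3962 and -0.13 ± 0.28 (SE) for let-7g-5p. miR-3967 was lower, at 0, 2 and 0 counts under sham and 15, 2 and 3 under Acu/LFES, or at most 5.46 per 10000 counts of miR-21a-5p. Whether reads of the older miRNAs with base differences were counted in these rows was not tested.

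**Figure D5:**
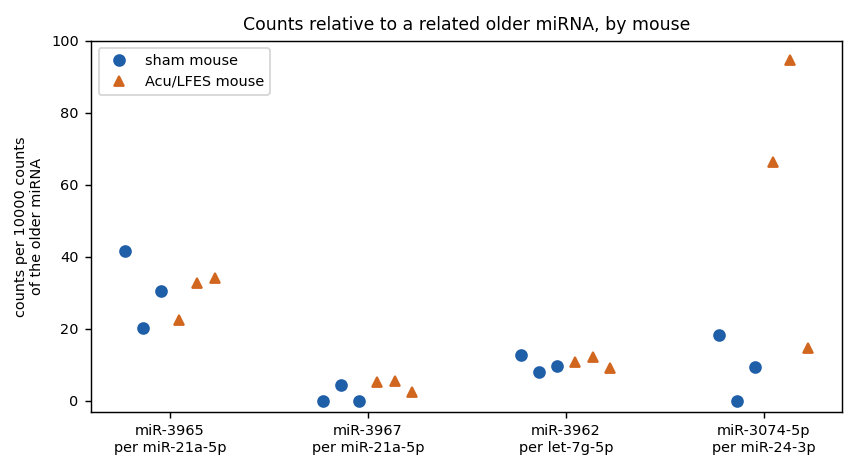
Counts of each miRNA per 10000 counts of a related older miRNA (y axis) in each mouse, sham mice as blue circles and Acu/LFES mice as orange triangles. miR-3965, miR-3967 and miR-3962 resemble the older miRNA in sequence, while miR-3074-5p is antisense to miR-24-3p. The ratios of miR-3962 lie between 7.99 and 12.8, while those of miR-3074-5p run from 0 to 94.6.

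Further sequences occur in many places. That of miR-3473b is found in the transcripts of 359 GENCODE genes and that of miR-3470b in those of 591. miR-3473b had 10, 3 and 0 counts under sham and 17, 1 and 1 under Acu/LFES. miR-3470b had 0, 14 and 0 counts against 12, 0 and 2. Their counts cannot be tied to 1 hairpin.

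The hairpins listed as overlapping ribosomal RNA left 2 of the 142, miR-6236 and miR-6240, both in all 6 mice. miR-6240 had 18.7, 56.0 and 228 normalized CPM under sham and 38.9, 116 and 128 under Acu/LFES, and miR-6236 had 23.1, 30.3 and 62.8 against 12.6, 33.3 and 53.8. Sham mouse 3 was highest in both. Their log2 fold changes were -0.08 ± 0.86 (SE) and -0.21 ± 0.86 (SE) by TMM and 0.79 and 0.70 by total counts.

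A list of hairpins from the imprinted Dlk1-Dio3 cluster on chromosome 12, which holds many of the older miRNAs, gave no member. Of 13 rows on that list, 3 held a count, and the highest sum was 7. miR-1247-5p, not on the list, lies at chr12:110278094-110278115 on the minus strand, in an exon of Dio3os, and had 0, 0 and 0 counts under sham and 6, 2 and 13 under Acu/LFES. The list of splicing, snoRNA-like, Dgcr8 or tRNA-like hairpins gave 7 of the 142, of which 4 were tested, with 3 log2 fold changes above 0 and 1 below 0. One of these is miR-1983, described as tRNA-like, with 0, 0 and 0 counts under sham and 6, 5 and 0 under Acu/LFES.

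Numbers of 4 digits that begin with 69 or 70 gave 32 of the 142. Their sums ran from 10 to 71, with a median of 14.0, and 1 of them, miR-6950-3p, was tested. It had 8, 10 and 9 counts under sham and 20, 13 and 11 under Acu/LFES, and its log2 fold change was -0.40 ± 0.88 (SE).

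The 107 miRNAs that were not tested had a median sum of 17 and at most 37 counts in a mouse. Counts were confined to 1 or 2 mice for 52 of them and found in all 6 mice for 4. The highest sum among them was 61, for miR-6412, with 3, 6 and 5 counts under sham and 29, 9 and 9 under Acu/LFES. Without the filter, edgeR gave none of the 107 an adjusted p under 0.05, the smallest being 0.577. It gave 7 an unadjusted p under 0.05. Of these, 2 were higher with Acu/LFES, against 4.09% of all 954 rows, and 5 were lower, against 1.47%. The 954 rows include rows below the sum that the 107 had to reach, so the backgrounds are not alike. The higher ones were miR-1964-3p, with 21, 19 and 0 counts under Acu/LFES and 0 in every sham mouse, and miR-3060-3p, with 1, 9 and 18 counts under Acu/LFES and 0 in every sham mouse. The lower ones were miR-6952-3p, miR-7030-3p, miR-6956-3p and miR-6947-5p, each found in a single sham mouse, and miR-7040-5p, with 2, 0 and 14 counts under sham and 0, 0 and 1 under Acu/LFES. All of the 7 but miR-7040-5p had counts in 1 group only. They therefore reached the required sum through the group in which they were higher. Because of this choice, the comparison with all 954 rows cannot show an excess in either direction. The size of difference that could be detected in the 107 was not tested.

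The mean log2 normalized CPM of the 35 tested miRNAs was 5.39, 4.98 and 5.81 under sham and 5.06, 5.68 and 4.76 under Acu/LFES, lowest in mouse 6. The lower-numbered miRNAs whose pattern over the 6 mice was most like it were miR-410-3p, miR-10a-5p, miR-664-3p, miR-484 and miR-191-5p, with Pearson correlations of 0.913, 0.886, 0.869, 0.848 and 0.825. All share the same libraries and factors, and these values are a description over 6 mice.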

How the data were processed

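The deposited table held raw read counts per mature miRNA for 6 mice, which the authors made from single-end small RNA reads. Processing tools named in the submitters' notes were bcl2fastq 1, cutadapt 1.6 and DESeq2 1.26.0. The aligner, the counter and the miRNA annotation are not given in the sources used here, nor is the treatment of reads that match several miRNAs. The members and lists were chosen with earlier results of these data known. Mice came from the treatment label, and 1 library was 1 mouse.

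Counts were fitted with edgeR 4.0.16 (R 4.3.3; filterByExpr, TMM, glmQLFit, glmQLFTest), with Benjamini-Hochberg adjustment over all 259 tested miRNAs. DESeq2 1.42.0, other scalings, other filters, collapsed identical rows and each mouse left out were alternatives. Normalized CPM were counts per 1000000 of total counts times the TMM factor, with 0.5 added before logs. Equal-depth detection was the exact expected number. Sequences and hairpins came from RefSeq (GRCm38.p6), and genes from GENCODE M21 (GRCm38). An older miRNA was called similar at an ungapped overlap of at least 17 bases with at most 2 mismatches.

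A miRNA was named with its values if it was tested, was among the 15 with the largest sum, had at least 3 counts in every mouse of 1 group and at most 1 in every mouse of the other, had at least 80% of a sum of at least 20 in 1 mouse, or matched another row. Other names are examples of a count, sequence group or list and were chosen after their values were seen. Group lists were hairpins of Dlk1-Dio3, antisense hairpins, splicing or small RNA hairpins, rRNA-overlapping hairpins, and tissue markers. Total counts ran from 391708 to 1504137. The sources used here mention no molecular identifiers, so floors are taken to cover counting error only.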

Additional observations from a re-analysis of the deposited data

How the results depend on the processing

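No paired analysis was possible because the mouse numbers 1 to 6 are not shared between the groups. No setting gave a tested miRNA of this class an adjusted p under 0.05. The count at an unadjusted p under 0.05 was 0 of 35 with TMM, 1 of 35 with DESeq2 and 1 of 35 with total counts. Over all 259 miRNAs the counts were 23, 29 and 23. Without the filter it was 8 of 142, against 53 of all 954 rows, which include rows with sums too low for the 142. When each mouse was left out it was 0 to 1 of 35, against 16 to 35 of all 259. The median log2 fold change was 0.16 by total counts and -0.723 to -0.0241 when each mouse was left out. The difference in miRNAs detected per mouse was 3.0 at a sum of at least 50, and 16.67 to 32.67 with each mouse left out. The difference in percent of counts was 0.0381 when totals were multiplied by TMM factors, and 0.120 to 0.286 with each mouse left out.

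By total counts the log2 fold changes that turned above 0 were 0.16 for miR-5126, 0.79 for miR-6240, 0.24 for miR-1981-5p, 0.16 for miR-2137, 0.13 for miR-3971, 0.0476 for miR-1968-5p, 0.70 for miR-6236, 0.0464 for miR-6238, 0.44 for miR-6395, 0.11 for miR-6950-3p and 0.51 for miR-3962. With totals outside the miR-486 pair, miR-6240 stood at 0.0634 and miR-3962 at 0.0418. With upper-quartile factors, miR-1843b-5p stood at -0.022.

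With each mouse left out, signs turned within these ranges: miR-1957a -0.16 to 0.78, miR-5126 -1.24 to 0.28, miR-1843b-5p -0.39 to 1.17, miR-1843a-5p -0.25 to 1.86, miR-6240 -0.59 to 1.35, miR-1981-5p -1.03 to 0.74, miR-5124a -1.03 to 0.49, miR-5112 -1.14 to 0.41, miR-3963 -0.58 to 0.44, miR-2137 -1.28 to 0.21, miR-3971 -0.79 to 0.35, miR-1968-5p -0.61 to 0.28, miR-6236 -0.72 to 0.31, miR-6538 -1.87 to 1.69, miR-6395 -0.44 to 0.13, miR-3962 -0.35 to 0.13 and miR-1839-3p -1.47 to 0.39. The other 389 of 433 values for single miRNAs kept their direction. The cause was not tested. Most of these miRNAs had few counts per mouse, which limits every comparison.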
